A study of Mus musculus with 2 samples.

Results

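Solute carriers are membrane proteins that move small molecules and ions across the plasma membrane and the membranes of organelles, and their gene names start with Slc followed by a family number. Most families are named for what they carry: families 7 and 38 carry amino acids, family 12 cations together with chloride, families 30 and 39 zinc, and family 25 the metabolites that pass the inner mitochondrial membrane. The cornea has no blood vessels, so its cells take glucose and amino acids from the aqueous humour and the tear film and export lactate, and its endothelium keeps the stroma clear by moving bicarbonate and other ions towards the aqueous humour. The members described here are all named, non-control spots of the arrays whose name starts with Slc and a digit. They were 250 of the 14799 names on the arrays, carried by 304 spots, and covered 40 families.

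Corneas that had degenerated spontaneously were set against normal corneas of the same Balb/c mice, each of which had 1 affected eye, on 2 two-colour spotted arrays. Array 1 had degenerative cornea in Cy5 with normal cornea in Cy3, and array 2 had the opposite dyes. The sources used here give neither the age and number of the mice nor whether their RNA was pooled. The arrays of a dye swap were counted as 1 replicate. No p-value is therefore given, the differences have no replicate check, and each ± below is the SD between the 2 arrays and measures technical spread only. All ratios are the deposited normalized log2 ratios of degenerative over normal cornea.

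Of the 250 names, 119 had a spot above background in at least 1 tissue on each array, which is 47.6% against 53.4% of all names. Background in a channel was set from 632 spots named Empty, and a name's value is the mean of its spots that passed. Both tissues were above background on both arrays for 104 of the 119 names. The degenerative cornea was above background on a single array for 13 names and on neither for 1, Slc4a3. The normal cornea was above background on a single array for 5 names and on neither for 0. Median intensities of all gene spots were 246 and 413 in degenerative cornea (arrays 1 and 2) and 439 and 226 in normal cornea, so the Cy3 channel was the brighter one on each array. The intensities quoted below are the deposited ones, before this dye difference was removed, and for dim spots they can run against the normalized ratio.

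Solute carriers differed little between the tissues as a set, and a few stood out. The median log2 ratio of the 119 names was 0.04, with quartiles of -0.08 and 0.15, beside a median of 0.01 and quartiles of -0.14 and 0.14 over all 7904 names above background. The mean ratio was under 0.5 in size for 111 of the 119 names beside 7512 of the 7904. When both arrays had to reach 1 in size with 1 sign, 0 names were called higher, beside 0.316% of all names, and 1 was called lower, Slc35f3, beside 0.709%. At a size of 0.5, 2 were higher (Slc6a14 and Slc39a6), beside 1.14%, and 5 were lower (Slc35f3, Slc14a1, Slc22a17, Slc38a3 and Slc4a3), beside 1.94%. Slc4a3 passed through the normal cornea alone. With both tissues above background on each array 4 names were lower, without it, beside 85 of all 6758 names. On raw ratios centred on the median, in place of the deposited ones, the rule of 0.5 found 0 higher and 3 lower. Over all 7904 names it found 53 and 90. In these bulk samples, fewer cells of a type and less RNA per cell cannot be told apart.

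**Figure D1:**
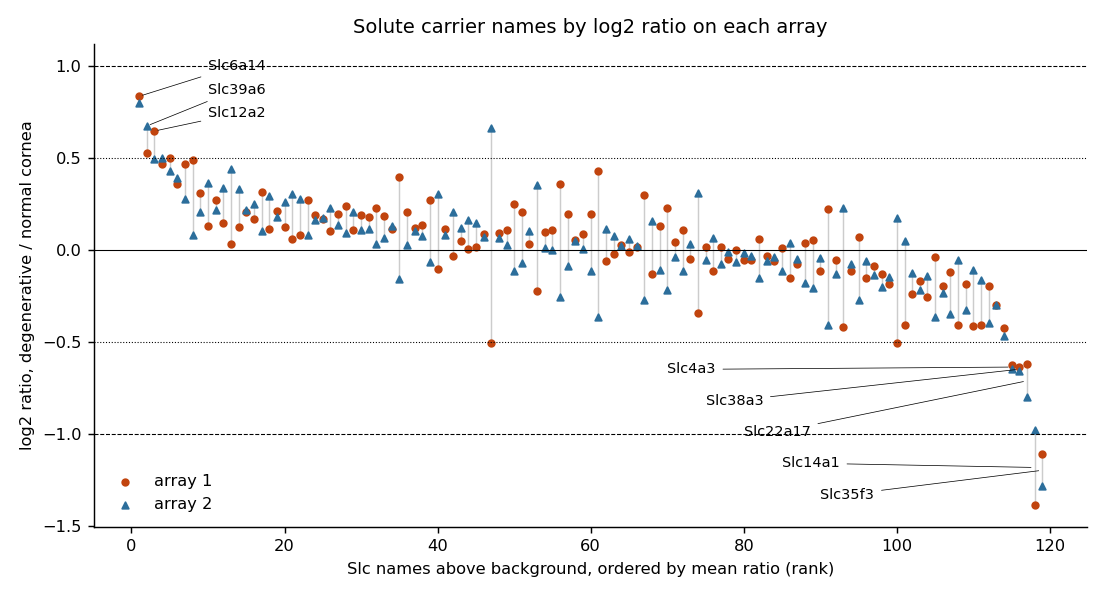
The log2 ratio of degenerative over normal cornea on array 1 (circles) and array 2 (triangles) is plotted for the 119 Slc names above background, ordered by their mean, with dotted lines at 0.5 and dashed lines at 1 in size. Most names lie within 0.5 of 0, Slc6a14 is at the high end near 0.82, and Slc14a1 and Slc35f3 are at the low end below -1.1.

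Both arrays were above 0 for 50 of the 119 names, beside 34.6% of all names. Both were below 0 for 32 names, beside 32.9% of all names. The arrays disagreed in sign for 37 names, beside 2572 of all 7904 names. The median SD between arrays was 0.09 for solute carriers and 0.10 for all names, so a single name with a ratio of 0.1 is within the spread between the arrays.

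The highest member was Slc6a14, a carrier that takes up neutral and basic amino acids together with sodium and chloride. Its intensity was 5022 and 3812 in degenerative cornea (arrays 1 and 2), against 3270 and 1873 in normal cornea. The degenerative cornea was the brighter tissue on each array. The log2 ratios were 0.83 and 0.80, a mean of 0.82 ± 0.03 or 1.76-fold. The promoter of this gene, from 250 bases before to 50 bases after its start, is shown because no member had a higher ratio. It is chrX:21714650-21714949, plus strand, in RefSeq for GRCm38.p6. Capitals mark a CCAAT box, read on the opposite strand, and the AP-1 motif TGANTCA.
Slc6a14: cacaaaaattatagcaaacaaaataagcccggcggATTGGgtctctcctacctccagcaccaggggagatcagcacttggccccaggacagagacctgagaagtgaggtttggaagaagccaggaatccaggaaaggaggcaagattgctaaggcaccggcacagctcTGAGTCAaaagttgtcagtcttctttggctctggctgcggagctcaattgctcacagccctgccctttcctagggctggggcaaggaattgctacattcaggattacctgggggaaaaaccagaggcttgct

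Carriers of zinc and other metals followed. Slc39a6, a zinc importer of the ZIP family, had intensities of 5699 and 6518 in degenerative cornea, against 4004 and 3720 in normal cornea. Its log2 ratios were 0.53 and 0.67 (mean 0.60 ± 0.10). Slc11a2, which takes up iron and other divalent metals with protons, had ratios of 0.47 and 0.28 (mean 0.37 ± 0.14) over its 2 spots above background, and 1 further spot was not above background. Slc39a10, another zinc importer, averaged 0.23 ± 0.14, and the copper importer Slc31a1 averaged 0.20 ± 0.13. At the other end of the class, Slc30a9, a zinc carrier of the ZnT family, averaged -0.29 ± 0.14. Of 18 metal carriers above background, 6 were above 0 on both arrays and 5 below 0, around a median of 0.01. Over all names these shares were 34.6% and 32.9%. Slc39a6 was the only metal carrier at 0.5 or more on both arrays.

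Slc12a2 brings sodium, potassium and chloride into cells together, and followed Slc39a6 in the order of the ratios. Averaged over 4 spots, its intensity was 2375 and 2372 in degenerative cornea, against 1869 and 1559 in normal cornea. The mean log2 ratios were 0.65 and 0.49 (mean 0.57 ± 0.11), which missed the rule of 0.5 on array 2. The spots differed in size and shared the sign: their means were 0.23, 0.35, 0.60 and 1.11, and each spot was above 0 on each array. Other cation chloride carriers had smaller ratios. The potassium chloride exporter Slc12a7 averaged 0.15 ± 0.04 on its spot above background, and -0.31 with its dim spot included, and Slc12a1, known as the kidney relative of Slc12a2, averaged 0.17 ± 0.09. All 4 of the 9 family members that were above background were above 0 on both arrays, beside 34.6% of all names. At 0.5 on both arrays, 0 of the 4 were higher, beside 1.14% of all names. Of the kinases that control this family, Wnk4 averaged 0.12 ± 0.09 and Stk39 -0.26 ± 0.19.

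Amino acid carriers lay on both sides of 0. Of 12 names above background in the amino acid and peptide class, 4 were above 0 on both arrays and 6 below 0. Over all names these shares were 34.6% and 32.9%. The median of the class was -0.04. At 0.5, 0 of the 12 were higher and 1 was lower, Slc38a3, beside 1.14% and 1.94% of all names. The class leaves out Slc6a14 because its family is classed with neurotransmitters. Slc38a2, a sodium-coupled carrier of small neutral amino acids known to be induced when amino acids run short, had intensities of 650 and 1016 in degenerative cornea, against 661 and 531 in normal cornea. The tissues were close to equal in intensity on array 1 before normalization, and the normalized ratios were 0.47 and 0.50 (mean 0.49 ± 0.02). Slc7a5, which exchanges large neutral amino acids, had 1261 and 1438 in degenerative cornea, against 996 and 836 in normal cornea, with ratios of 0.50 and 0.43 (mean 0.46 ± 0.05). Its heavy chain Slc3a2, without which it does not reach the cell surface, had 10682 and 10347 in degenerative cornea, against 11052 and 10246 in normal cornea, with a mean ratio of -0.04 ± 0.02, which turned to 0.01 with a loess over the whole array. The ratios of Slc7a5 and Slc3a2 differed by more than the spread between arrays, which is technical only. Each was read from 1 spot, and spots of 1 name can differ widely: those of Slc12a2 had means from 0.23 to 1.11. No mismatch between the partners is therefore read from these ratios.

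Slc38a3, a glutamine carrier of the same family as Slc38a2, had 1086 and 1311 in degenerative cornea, against 1973 and 1811 in normal cornea. The degenerative cornea was the dimmer tissue on each array, and the ratios were -0.64 and -0.66 (mean -0.65 ± 0.01). Slc38a2 and Slc38a3 were the only family 38 names above background and lay on opposite sides of 0. The heavy chain Slc3a1, which pairs with a carrier of cystine and basic amino acids, averaged -0.26 ± 0.22, and the peptide carrier Slc15a2 averaged -0.23 ± 0.16. The glutamate carrier Slc1a1 averaged 0.11 ± 0.01. The glutamine carrier Slc1a5 and the cystine glutamate exchanger Slc7a11 were not above background. The promoter of Slc38a2 is shown as that of a higher amino acid carrier. It is chr15:96699679-96699978, minus strand, with a GC box read on the opposite strand in capitals.
Slc38a2: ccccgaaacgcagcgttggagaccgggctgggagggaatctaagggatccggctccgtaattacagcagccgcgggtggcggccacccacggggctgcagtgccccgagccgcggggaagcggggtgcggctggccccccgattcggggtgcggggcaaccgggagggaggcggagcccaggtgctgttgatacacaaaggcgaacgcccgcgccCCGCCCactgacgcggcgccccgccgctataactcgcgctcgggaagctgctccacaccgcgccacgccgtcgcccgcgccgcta

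**Figure D2:**
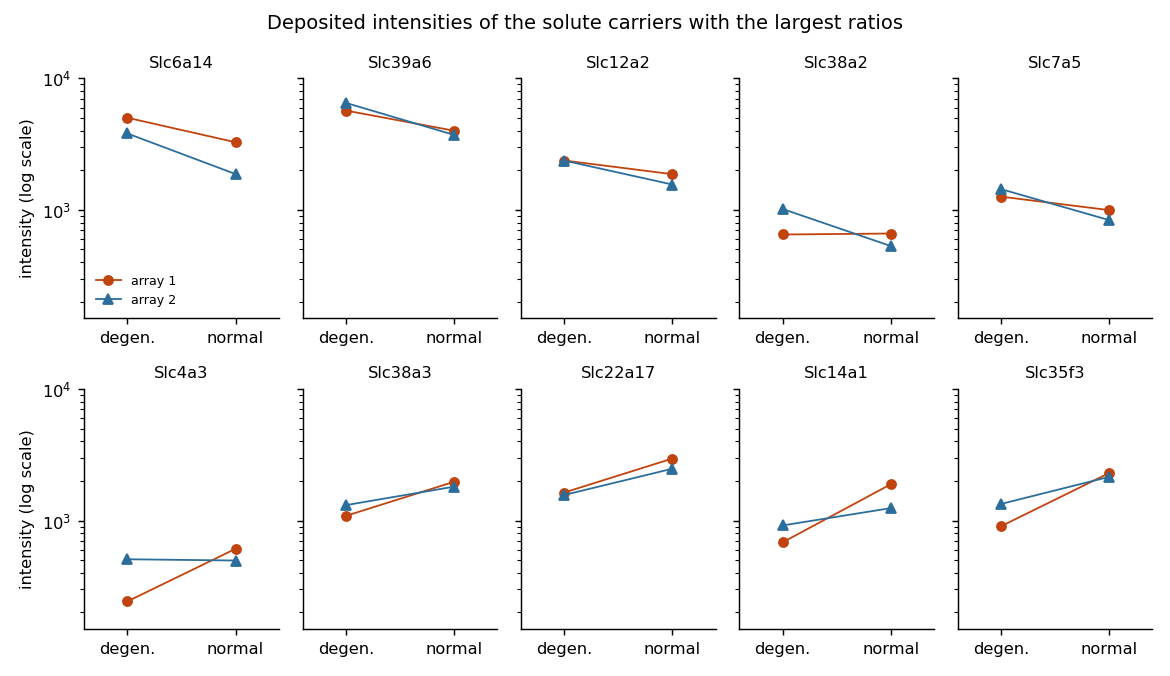
Deposited intensity, on a log axis, is plotted in degenerative cornea and normal cornea for 10 solute carriers, with a line for array 1 (circles) and one for array 2 (triangles). Slc6a14, Slc39a6, Slc12a2 and Slc7a5 slope down towards the normal cornea on both arrays, Slc38a3, Slc22a17, Slc14a1 and Slc35f3 slope up on both, and Slc38a2 and Slc4a3 are flat on 1 array before normalization.

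The lowest member was Slc35f3, which belongs by sequence to the nucleotide sugar family and has been linked to thiamine transport in humans. Its intensity was 907 and 1339 in degenerative cornea, against 2302 and 2152 in normal cornea. The log2 ratios were -1.11 and -1.28, a mean of -1.20 ± 0.12, or 2.29-fold lower. With a loess over the whole array it missed the rule of 1, and its mean over 11 alternatives ran from -1.28 to -0.98. The other 12 nucleotide sugar carriers above background did not follow it. Their means ran from -0.30 for Slc35b1, a carrier of adenine nucleotides in the endoplasmic reticulum, to 0.21 for Slc35f5. In the family, 6 of the 13 names were above 0 on both arrays, beside 34.6% of all names. RefSeq for GRCm38.p6 lists a pair of starts for Slc35f3, shown because it was the only member called at a size of 1. They are chr8:126138875-126139174 and chr8:126298329-126298628, both plus strand, with GC boxes in capitals.
Slc35f3 first start: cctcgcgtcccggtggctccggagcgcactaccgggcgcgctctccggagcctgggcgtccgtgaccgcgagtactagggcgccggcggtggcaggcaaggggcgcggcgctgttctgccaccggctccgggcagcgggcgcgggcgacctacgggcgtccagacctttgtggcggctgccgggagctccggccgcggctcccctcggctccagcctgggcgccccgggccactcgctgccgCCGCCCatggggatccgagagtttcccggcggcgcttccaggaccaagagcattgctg
Slc35f3 second start: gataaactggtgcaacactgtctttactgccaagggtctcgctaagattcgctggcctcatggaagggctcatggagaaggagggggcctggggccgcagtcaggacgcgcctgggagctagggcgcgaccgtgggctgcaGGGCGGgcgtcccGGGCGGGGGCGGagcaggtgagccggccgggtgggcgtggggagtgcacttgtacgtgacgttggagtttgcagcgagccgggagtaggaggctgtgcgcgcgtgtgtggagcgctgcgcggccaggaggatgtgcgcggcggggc

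The windows were searched on both strands for 6 motifs. The share of 32851 promoters of the same length that hold each is 13.6% for the TATA box (TATAAA), 37.4% for CCAAT, 35.7% for the GC box (GGGCGG), 7.15% for the E-box (CACGTG), 7.81% for AP-1 (TGANTCA) and 3.95% for the amino acid response motif (TGATGNAAN). The motifs differ in their letters, and no marked matches overlap. The table holds a promoter for 96 of the 119 names, and these matches are descriptions of letters, not of binding.

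Slc14a1 carries urea and is known from red cells and kidney. Its single spot had 684 and 919 in degenerative cornea, against 1890 and 1244 in normal cornea, with ratios of -1.38 and -0.98 (mean -1.18 ± 0.29). It missed the rule of 1 on array 2 and would have been called on array 1 alone. With array 1 alone, 2 names were lower at 1, beside 91 of all 7904 names. The spot lies in print block 42, one of 4 blocks in which Empty spots gave signal, and the part of that signal in its ratio was not tested. Without those blocks Slc14a1 has no value, and 4 names were lower at 0.5, beside 143 of all 7351 names.

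Slc22a17, a receptor for the siderophore-binding protein lipocalin 2, had 3 spots, of which 2 were above background. Over these it had 1636 and 1567 in degenerative cornea, against 2965 and 2482 in normal cornea, with ratios of -0.62 and -0.80 (mean -0.71 ± 0.13). The spot means were -0.62 and -0.80. With the dim spot included the mean was -0.23. The other 5 organic ion carriers above background, among them the carnitine carriers Slc22a4 (0.01 ± 0.17) and Slc22a5 (0.10 ± 0.29), had means between 0.01 and 0.21.

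Slc4a3 exchanges chloride for bicarbonate. Its intensity was 243 and 508 in degenerative cornea, against 610 and 497 in normal cornea, and the degenerative cornea was not above background on either array. The spot therefore entered only through the normal cornea, which favours a lower ratio. With the degenerative cornea set no lower than the dimmest spot above background, it was 1.41-fold lower. That level only stands in for the limit, so the value is not a firm bound. On array 2 the intensities were close to equal before normalization. Of the other bicarbonate carriers, Slc4a7, which brings in sodium and bicarbonate, averaged -0.20 ± 0.23 on 1 of its 4 spots (-0.06 over all 4) and the exchanger Slc4a2 averaged 0.08 ± 0.02. Slc4a4, the main sodium bicarbonate carrier of the corneal endothelium, was on the arrays with 2 spots and not above background, and Slc4a11, mutated in human endothelial dystrophies, had no spot. The class is thus read from 3 of its 17 names. Atp1b1, a subunit of the sodium pump, whose gradient drives many of these carriers, averaged -0.66 ± 0.03.

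Glucose and lactate carriers were close to equal. Slc2a1, the main glucose carrier of epithelia and barriers, had 6046 and 5605 in degenerative cornea, against 5709 and 5000 in normal cornea, with a mean ratio of 0.15 ± 0.06. Slc5a1, which takes up glucose with sodium, had 2556 and 2218 in degenerative cornea, against 2075 and 1694 in normal cornea, and its ratios of 0.49 and 0.08 (mean 0.29 ± 0.29) did not agree in size. Of 8 names above background in the sugar and polyol class, 4 were above 0 and 0 below 0 on both arrays. Over all names these shares were 34.6% and 32.9%. The class is set by families 2 and 5, and family 5 also holds carriers of vitamins and other solutes, so not all 8 carry sugars. The lactate exporter Slc16a3 averaged 0.11 ± 0.04. The lactate carrier Slc16a1, with 417 and 706 in degenerative cornea, against 821 and 417 in normal cornea, averaged -0.18 ± 0.33 with opposite signs on the arrays. Bsg, the partner that brings both to the surface, averaged -0.21 ± 0.05. Mpc1, a subunit of the mitochondrial pyruvate carrier, averaged -0.40 ± 0.27.

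**Figure D3:**
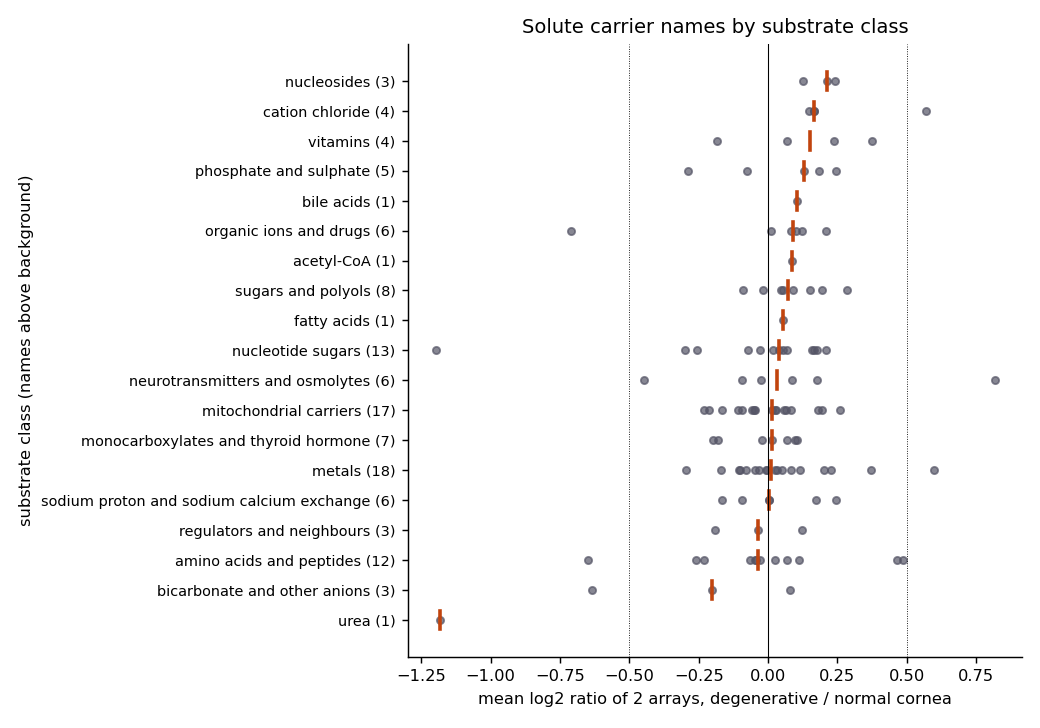
The mean log2 ratio of each of the 119 Slc names above background is plotted by substrate class, as points, with a bar at the class median and the number of names in brackets. The medians of classes with 4 or more names lie between -0.04 (amino acids and peptides) and 0.17 (cation chloride), while single names reach -1.20 and 0.82.

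Mitochondrial carriers were the class with the second most names above background and showed small ratios throughout. Of 17 names, 5 were above 0 on both arrays and 6 below 0, beside 34.6% and 32.9% of all names. The median was 0.02, and the highest was Slc25a24, which exchanges ATP-magnesium for phosphate, at 0.26 ± 0.07. Slc25a4, which exchanges ADP and ATP, had 36431 and 32744 in degenerative cornea, against 38952 and 42555 in normal cornea, and averaged -0.17 ± 0.05. The phosphate carrier Slc25a3 averaged -0.11 ± 0.03, and Slc25a5, a second ADP and ATP carrier, -0.05 ± 0.09. None of these was saturated, since the highest solute carrier intensity was 42555 and every channel reached at least 62149. The iron carrier Slc25a28 averaged -0.21 ± 0.03, the carnitine carrier Slc25a20 0.20 ± 0.02 and Slc25a13, which exchanges aspartate and glutamate, 0.18 ± 0.14.

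Among carriers of vitamins and nucleosides, the thiamine carrier Slc19a2 was highest. It had 7821 and 8060 in degenerative cornea, against 5925 and 6164 in normal cornea, and averaged 0.38 ± 0.02. Slc23a2, which takes up ascorbate with sodium, averaged -0.18 ± 0.08 (-1.02 with a dim spot included), and its relative Slc23a1 0.07 ± 0.06. All 3 nucleoside carriers above background were above 0 on both arrays, beside 34.6% of all names. Of these, Slc28a3 had 13700 and 13470 in degenerative cornea, against 12197 and 11202 in normal cornea, and averaged 0.21 ± 0.01. Slc29a1 averaged 0.12 ± 0.09 and the lysosomal Slc29a3 0.24 ± 0.13. Of the phosphate carriers, Slc34a2 averaged 0.25 ± 0.16, and Slc37a4, which brings glucose 6-phosphate into the endoplasmic reticulum, -0.29 ± 0.17.

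The osmolyte and neurotransmitter carriers other than Slc6a14 were near 0 with 1 exception. The taurine carrier Slc6a6 had 11669 and 12232 in degenerative cornea, against 11261 and 11410 in normal cornea, and averaged 0.09 ± 0.05. The creatine carrier Slc6a8 averaged -0.02 ± 0.13 and the glycine carrier Slc6a9 -0.09 ± 0.05. Slc18a2, which loads monoamines into vesicles, had 320 and 362 in degenerative cornea, against 601 and 384 in normal cornea, and averaged -0.45 ± 0.03. The degenerative cornea was above its limit on a single array for this gene.

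Markers of other ocular tissues differed between the samples. Of 13 retinal markers above background, of 18 listed, all 13 were below 0 on each array, around a median of -1.60. Sag, Gngt1 and Opn1sw were among them, at -1.94 ± 0.18, -1.91 ± 0.41 and -2.25 ± 0.07, and the summed intensity was 39012 and 38749 in degenerative cornea, against 134350 and 120578 in normal cornea. The 2 melanocyte markers above background, Tyrp1 and Dct, were at -0.86 ± 0.11 and -0.85 ± 0.02, with sums of 16126 and 16308 in degenerative cornea, against 30549 and 28643 in normal cornea. All 4 corneal endothelial markers above background were below 0 on both arrays. Their sums were 11649 and 11546 in degenerative cornea, against 18977 and 15554 in normal cornea. Of 4 keratocyte markers above background, 3 were below 0 on both arrays and 1 above. They ran from -0.93 for Ptgds to 0.59 for Thbs4. The only blood marker above background, Hba-a1, averaged -0.31 ± 0.15. Of 2 macrophage markers, Cd68 averaged 0.25 ± 0.09 and Csf1r -0.23 ± 0.32. The 10 lens markers had a median of 1.84, with sums of 109584 and 114726 in degenerative cornea, against 36896 and 36378 in normal cornea. They were split: 6, all crystallins, were at 1 or more on both arrays. Mip averaged 0.43 ± 0.10, Bfsp1 0.09 ± 0.07, Bfsp2 0.08 ± 0.05 and the crystallin Cryab -0.02 ± 0.002, so the lens list did not move as 1. Krt12, the keratin that defines corneal epithelium, was bright in both tissues. With Krt5, Aldh3a1 and Tkt it lay at 98% or more of the channel maximum in all 4 channels, so no ratio is read from these 4 of the 10 corneal epithelial markers above background, and 2 more lay there in some channels. The other 4 had a median of 0.20, with Klf4 at 0.29 ± 0.004 and Trp63 at 0.26 ± 0.02. Pax6 was at 0.15 ± 0.08, and Klf5, at 0.04 ± 0.07, had opposite signs on the arrays. The part of these tissues in the lower ratios of Slc35f3, Slc14a1, Slc22a17, Slc38a3, Slc4a3 and Slc18a2, and in the higher ones, was not tested.

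Solute carriers known from retina and pigment cells could be read in part. Slc24a1, the sodium calcium potassium exchanger of rod outer segments, had 1768 and 1813 in degenerative cornea, against 1844 and 1665 in normal cornea, and averaged 0.00 ± 0.06. With its dim spot included the mean was -0.36. Slc24a5, known from melanosomes, averaged -0.17 ± 0.03. The glial glutamate carriers Slc1a2 and Slc1a3, the vesicular glutamate carrier Slc17a7, the cone exchanger Slc24a2 and the lactate carrier of the retinal pigment epithelium, Slc16a8, were not above background. The pigment carrier Slc45a2 had no spot.

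Names with several spots show how far the spots of a name can differ. Of the 119 names, 105 had 1 spot above background and 14 had several. The means of the spots differed in sign for 9 of these 14 names and shared a sign for 5. The 9 names had means near 0, such as 0.10 for Slc10a3 and 0.02 for Slc31a2. Their count therefore does not measure how far a single spot with a large ratio can be trusted. For 4 names, Slc12a2, Slc22a17, Slc11a2 and Slc17a5, every spot that passed had 1 sign on both arrays. The magnesium carrier Slc41a3 was among the 9: its spots had ratios of -1.34 and 0.34 on array 1 and 1.68 and -0.35 on array 2, and its mean of 0.08 ± 0.83 carries no direction. The zinc importer Slc39a3, with 1 spot, also changed sign, at -0.51 on array 1 and 0.17 on array 2.

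**Figure D4:**
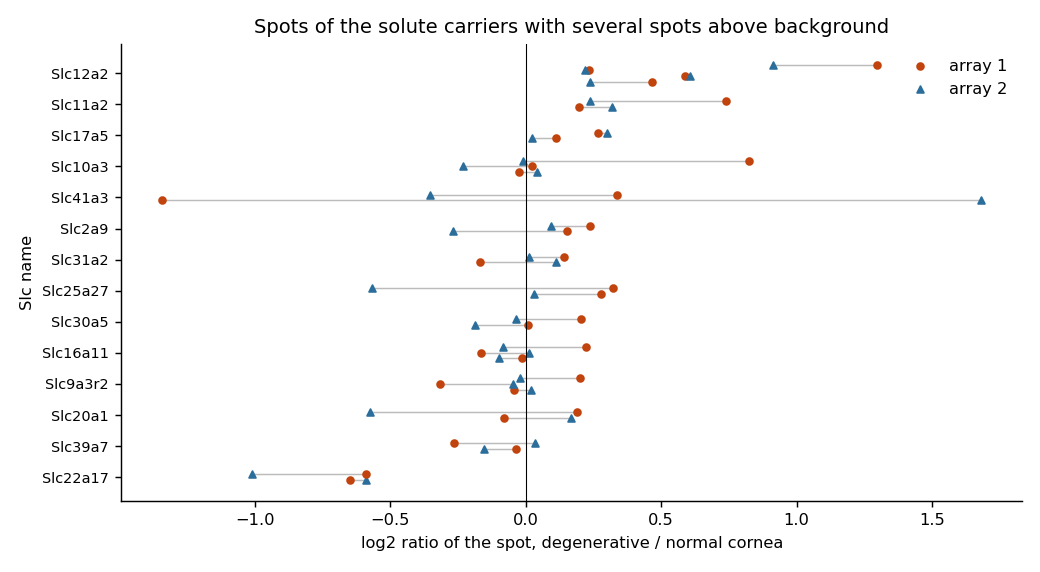
Each pair of symbols joined by a line is 1 spot, with its log2 ratio of degenerative over normal cornea on array 1 (circles) and array 2 (triangles), for the 14 Slc names with several spots above background. All spots of Slc12a2 lie above 0 and all spots of Slc22a17 below 0, most other names have spots on both sides, and Slc41a3 has a spot at -1.34 on array 1 and 1.68 on array 2.

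The 131 names with no spot above background were not read. Among them 3 had ratios of at least 1 on both arrays (Slc36a1, Slc4a1 and Slc19a1), beside 2.28% of all such names, and 1 had ratios of at most -1 (Slc17a2), beside 1.15%. These names came after their values were seen, and their intensities ran from -19 to 452 in the 2 tissues, so the ratios have no measured level behind them. Slc4a1, the anion exchanger of red cells, was 1 of them. Families 13, 26, 40 and 43, which carry citrate and sulphate, anions, iron and amino acids, had no name above background.

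Related genes outside the name rule were read by the same rules. Of those above background, none of the carriers named otherwise, partners, water channels, pumps and regulators listed was at 1 or more in size on both arrays. Aqp3, which passes water and glycerol in epithelia, averaged 0.53 ± 0.06 with 37699 and 30618 in degenerative cornea, against 26670 and 23924 in normal cornea. Aqp1, the water channel of corneal endothelium and keratocytes, averaged -0.40 ± 0.10, and Aqp5, that of corneal epithelium, 0.01 ± 0.10. Ucp2, a mitochondrial carrier of family 25 by sequence, averaged -0.09 ± 0.09.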

How the data were processed

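Total RNA of degenerative and normal cornea was hybridised on 2 dye-swapped spotted arrays. The deposited tables hold an intensity per dye, already background-subtracted since some values are below 0, and the authors' normalized log2 ratio, per the file headers. The deposited linear ratio repeats the log2 values and was not used. The sources used here name no normalization method or scanner software. On array 1 the authors' log2 ratio correlated at 0.986, and on array 2 at 0.977, with a print-tip loess made in limma 3.58.1 (R 4.3.3), across spots above background, which are not independent.

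Control spots were left out. The background limit was the Empty spots' median plus 3 scaled median absolute deviations: 290.0 and 788.5 for degenerative cornea, 569.5 and 373.2 for normal cornea. A spot needed 1 channel above it on each array, and a name's value was the mean of its spots that passed. The fold value for Slc4a3 used channel values after loess and Aquantile scaling, and depends on the background limit. Names were matched to gene symbols of GRCm38.p6: 247 were current, 2 were synonyms (Slc24a6 is now Slc8b1) and 1 matched several. Substrate classes follow the family number.

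The names given are those called at 1 or 0.5, the 10 highest and 10 lowest, the extremes of families with at least 4 names above background, and a list of corneal and retinal carriers, plus further members of a class as examples, which were chosen after their values were seen. Some genes that the rule names are not reported here. The members, lists and size rules were chosen with earlier results of these data known. The calls were tested on simulated data, with noise drawn from the difference between the 2 arrays. That noise is technical spread only, so the simulation cannot speak to differences between mice or in tissue content. No count model applies to arrays, and the number of arrays limits the precision. Python 3.11.15, numpy 2.4.6, pandas 2.3.3 and matplotlib 3.10.9 were used.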

Additional observations from a re-analysis of the deposited data

Results flagged for a closer look

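Spots that should carry no probe gave signal. Of 632 spots named Empty, 65 passed the filter used for genes, and all 65 lay in print blocks 41, 42, 45 and 46. These blocks hold 402 of the 632 Empty spots, so most Empty spots lie there in any case. Of the 119 solute carrier names above background, 8 have a spot in these blocks, among them Slc14a1, whose only spot is in block 42.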

How the results depend on the processing

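The choices varied were the normalization, the source of the ratio, the filter on dim spots, the rule for several spots, the print blocks and the array used, all planned. Without the filter, over 250 names, 3 were higher and 2 lower at 1, beside 179 and 130 of all 14799 names. At 0.5, 12 were higher and 12 lower, beside 668 and 499. On both arrays 86 were above and 61 below 0. On raw ratios centred on the median, 0 were lower at 1, beside 37 of all 7904 names. At 0.5, 0 were higher and 3 lower, beside 53 and 90. On both arrays 15 were above and 10 below 0, around a median of 0.0818, beside 0.0597 over all names. A loess over the whole array gave 0 lower at 1, beside 51 of all 7904 names. With background at the 95th percentile of the Empty spots, over 71 names, 3 were lower at 0.5, beside 80 of all 4985 names. On both arrays 20 were below 0. Each array alone gave 1 to 2 names lower at 1, 4 higher at 0.5 and 47 to 54 below 0. Over all 7904 names, 86 to 91 were lower at 1 and 241 to 322 higher at 0.5. A single array needs only 1 value to pass, so these counts are over an easier rule. The share of all names on each side of 0 was not counted for the alternatives. The causes of the other shifts were not tested.

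No value changed sign between the deposited ratios and an alternative for Slc6a14, Slc39a6, Slc12a2, Slc38a2, Slc7a5, Slc38a3, Slc22a17, Slc14a1 or Slc35f3. Many of the alternatives could not change it. The other source of the ratio repeats the deposited values, and each array alone already had the sign of the mean for these names. For a name with 1 spot, the filters, the rule for several spots and the print blocks leave the value unchanged or remove it. Only the other normalizations could turn its sign. Slc6a14 ran from 0.73 to 0.86, Slc39a6 from 0.53 to 0.69, Slc12a2 from 0.29 to 0.65, Slc38a3 from -0.69 to -0.63 and Slc14a1 from -1.38 to -0.92 over 9 alternatives. A dim spot joins the mean of 17 names without the filter, and 2 of them, Slc12a7 and Slc24a1, change sign. Agreement between the arrays of a dye swap speaks to dye and hybridisation error and not to differences between mice. No paired analysis was possible because each ratio already pairs both corneas of the same mice on 1 array, and the 2 arrays count as 1 replicate.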
